A study of Homo sapiens with 18 samples.

Results

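The interferon-stimulated genes described here are 45 genes that cells switch on after they sense interferon. They were taken from the count table by NCBI Gene ID from a fixed list, 45 of the 28395 Gene IDs in the table. By role, 19 encode antiviral effectors, 7 RNA sensors or RNA-activated enzymes, 10 proteins of ISG15, ubiquitin or ADP-ribose conjugation, 4 signalling proteins, and 5 have other roles. They were measured in PC-3, a human prostate cancer line, in the RNA of the cytosolic fraction. Sheared cells had been detached, brought into suspension and passed through a 5 mL syringe with a 30-gauge needle at 250 µL/s. Static cells were kept in suspension during that passage. Both were then held, unattached, in wells coated with poly-HEMA and sampled after 3 h, 12 h or 24 h, which gave sheared and static groups at each time with 3 libraries each, 18 in all. Sheared and static libraries of 1 time with the same replicate number derive from a shared pool of cells, so each sheared library was compared with its own pool. The labels name no interferon treatment. All cells were of 1 line, so every p-value concerns pools of that line. Those of sheared against static cells measure the spread of that difference from pool to pool, estimated over all times together. Those of static cells over time measure the spread between pools.

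Type I interferons bind a receptor at the cell surface and activate the kinases JAK1 and TYK2, which phosphorylate STAT proteins. STAT2 and IRF9 are parts of the complex ISGF3, which binds the interferon-stimulated response element (ISRE) in the promoters of these genes, while STAT dimers bind the gamma-activated site (GAS). The products block steps of virus replication, sense foreign RNA, attach the ubiquitin-like protein ISG15 to other proteins, or feed back on the pathway.

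The promoters of these genes are shown first, because the ISRE is what many of them share. The RefSeq promoter table (GRCh38.p14) held 36 of the 45 genes. In the 250 bases before the start site, 19 of the 36 (52.8%) held the ISRE core (GAAA, 2 bases of any kind and GAAA again) on either strand, against 3.07% of all 27305 promoters of the table. At least 2 cores, overlapping ones included, stood in 12 promoters. The GAS core TTCNNNGAA, which is the same on both strands, was in 9 of the 36 (25.0%), against 6.78% of all promoters. By role, the ISRE core was in 12 of 16 effector promoters, 2 of 4 of sensors, 3 of 8 of the conjugation group, 0 of 3 of signalling genes and 2 of 5 of the others. A match is a run of letters and not a shown binding site.

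Stretches of 6 promoters show the core in capitals on the strand of the gene, where TTTC forms are the core read on the other strand. The promoters of IFIH1 and IFI6 hold 3 cores each, not all of them shown. Those 159 to 144 bases before the start in IFIH1 and 156 to 147 bases before it in IFI6 lie outside the stretches. IFIT1 and ISG15 are shown because their shear effect differed between 24 h and 12 h, IFIH1 for the sensors, IFI44 and IFI6 for the effectors, and HERC5 because it did not pass the test in sheared cells at any time. IFIT1 is chr10:89392477-89392559 (plus strand), ISG15 chr1:1013354-1013429 (plus), IFIH1 chr2:162318685-162318735 (minus), IFI44 chr1:78649741-78649788 (plus), IFI6 chr1:27672246-27672337 (minus) and HERC5 chr4:88456970-88457084 (plus), all in GRCh38.p14.
IFIT1: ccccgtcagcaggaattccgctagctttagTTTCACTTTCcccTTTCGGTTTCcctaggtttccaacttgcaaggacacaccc
ISG15: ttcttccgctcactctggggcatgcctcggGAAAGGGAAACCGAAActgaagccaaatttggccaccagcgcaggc
IFIH1: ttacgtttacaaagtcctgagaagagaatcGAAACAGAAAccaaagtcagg
IFI44: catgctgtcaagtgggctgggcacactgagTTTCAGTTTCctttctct
IFI6: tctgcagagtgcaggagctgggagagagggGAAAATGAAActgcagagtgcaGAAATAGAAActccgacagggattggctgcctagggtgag
HERC5: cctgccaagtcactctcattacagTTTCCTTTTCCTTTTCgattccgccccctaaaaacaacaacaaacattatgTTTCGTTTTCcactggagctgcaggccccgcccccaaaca

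Per kilobase of exon, the most abundant of the 45 in static cells at 12 h was ISG15, at a mean of 192 CPM per kb, where CPM are counts per 1000000 of a library's TMM-scaled total. IFITM3 followed with 153, IFITM2 with 75.3, IFI6 with 37.6 and the transcription factor gene IRF7 with 26.9 CPM per kb. The sensors OAS1, OASL, OAS3, OAS2, IFIH1 and EIF2AK2 lay between 5.34 and 8.91 CPM per kb. At the low end, DHX58 had at most 4 counts in any library and did not pass the filter on low counts, so 44 genes were tested in sheared against static cells. EPSTI1, XAF1 and TRIM22 passed it with at most 16, 12 and 34 counts in any library.

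At 3 h, 1 of these genes passed the test between sheared and static cells. The median log2 fold change of the 44 was -0.02, against 0.01 over all 15189 genes tested. ISG20, an RNA exonuclease, was the only one to pass the threshold (adjusted p below 0.05, edgeR). It was 1 of 44 higher, where 1.12% of all genes were, and 0 were lower, where 0.342% of all genes were. At an unadjusted p below 0.05, 5 were lower and 1 higher, and DESeq2 also called 0 lower. A fit of the 6 libraries of 3 h alone called 6 lower and 2 higher, among 650 lower and 816 higher of the 14470 genes it tested. Sheared and static libraries did not overlap for 9 lower and 3 higher genes, where 8.83% and 9.93% of all genes did so in each direction.

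ISG20 had 14.6, 13 and 13.2 CPM in sheared libraries, against 6.66, 6.32 and 6.80 CPM in static libraries at 3 h, replicates 1 to 3 in order, and every sheared library lay above every static one. Its log2 fold change was 1.04 ± 0.19 (SE, adjusted p = 0.006), and without 3 h replicate 1, 2 or 3 the adjusted p was 0.11, 0.0768 or 0.0561. ISG15, the ubiquitin-like modifier, had 318, 306 and 299 CPM in sheared libraries, against 259, 263 and 258 CPM in static libraries, higher in every sheared library but not past the threshold at 0.24 ± 0.12 (SE, adjusted p = 0.562). The effector IFIT1, which binds RNA lacking a host cap, had 65.6, 66.0 and 60.2 CPM in sheared libraries, against 80.9, 83.9 and 70.5 CPM in static libraries, lower in every sheared library at -0.29 ± 0.12 (SE, adjusted p = 0.4). Neither gene passed although its groups did not overlap.

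IFIT3, a partner of IFIT1, had 21.0, 23.4 and 20.9 CPM in sheared libraries, against 31.1, 34.8 and 23.6 CPM in static libraries at 3 h, the log2 fold change being -0.44 ± 0.15 (SE, adjusted p = 0.264). The transcription factor gene IRF1 had 30.0, 30.7 and 24.2 CPM in sheared libraries, against 43.0, 43.3 and 35.8 CPM in static libraries, the log2 fold change being -0.53 ± 0.19 (SE, adjusted p = 0.299). STAT2 had 35.6, 32.2 and 33.7 CPM in sheared libraries, against 39.2, 41.5 and 42.3 CPM in static libraries, at -0.28 ± 0.12 (SE, adjusted p = 0.456). In all 3 of these genes every sheared library was the lower, and none of the 3 passed.

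The GTPase gene MX1 had 136, 147 and 145 CPM in sheared libraries, against 150, 141 and 145 CPM in static libraries at 3 h, and its groups overlapped (-0.03, adjusted p = 0.98). OAS2, which makes the 2′-5′ oligoadenylates that activate RNase L, had 33.4, 37.9 and 47.9 CPM in sheared libraries, against 39.9, 38.6 and 49.0 CPM in static libraries, overlapping as well (-0.10, adjusted p = 0.913). The same held for the RNA helicase gene IFIH1, with 25.4, 30.1 and 32.7 CPM in sheared libraries, against 32.5, 36.8 and 29.8 CPM in static libraries (-0.17, adjusted p = 0.884). IRF9 and IRF7 overlapped too, with log2 fold changes of 0.04 and 0.14 and adjusted p of 0.967 and 0.815. IRF9 had 38.1, 39.7 and 39.8 CPM in sheared libraries, against 37.8, 41.1 and 35.9 CPM in static libraries. IRF7 had 91.4, 81.4 and 91.8 CPM in sheared libraries, against 76.5, 83.0 and 80.0 CPM in static libraries.

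**Figure D1:**
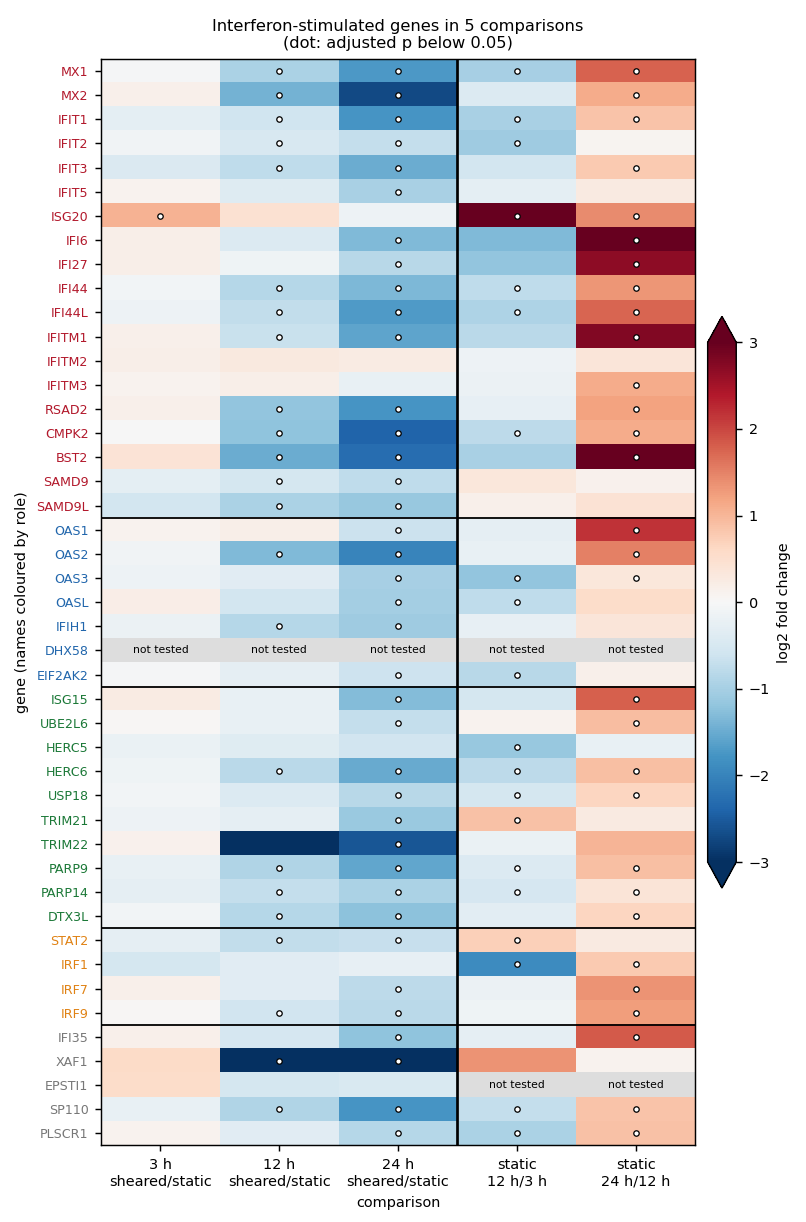
Log2 fold change of each gene (y axis, names coloured by role, in the order effectors, sensors, conjugation, signalling, other) in 5 comparisons (x axis). Blue is lower and red higher in the group named first, the colour ends at 3, and a dot marks an adjusted p below 0.05. The column of 24 h sheared over static is blue with dots in 38 of 44 tested genes.

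At 12 h, genes of the interferon response were lower in sheared than in static cells. Of the 44, 23 fell and 0 rose past the threshold, where 4.55% of all genes were lower and 6.29% higher. DESeq2 called 25 lower and 0 higher, and 2 were higher at an unadjusted p below 0.05. The median log2 fold change was -0.56, against -0.01 over all genes tested. The effectors MX1, MX2, RSAD2 and CMPK2, the sensor gene OAS2, the ADP-ribosyltransferase gene PARP9 with its partner DTX3L, and STAT2 had the smallest p-values. The 23 comprised 13 of 19 effectors, 2 of 6 sensors tested, 4 of 10 of the conjugation group, 2 of 4 signalling genes and 2 of 5 others. In bulk RNA, a lower level in every cell and fewer cells with a high level cannot be told apart.

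Among effectors at 12 h, MX1 had 41.0, 40.5 and 32.1 CPM in sheared libraries, against 69.3, 80.2 and 68.6 CPM in static libraries, the log2 fold change being -0.95 ± 0.14 (SE, adjusted p = 0.00044). MX2, a related GTPase, had 2.36, 1.74 and 2.26 CPM in sheared libraries, against 4.67, 6.16 and 6.07 CPM in static libraries, at -1.41 ± 0.22 (SE, adjusted p = 0.000789). RSAD2 (viperin), an enzyme that makes a chain-terminating nucleotide, had 5.80, 3.91 and 4.66 CPM in sheared libraries, against 10.2, 10.8 and 11.5 CPM in static libraries, at -1.19 ± 0.21 (SE, adjusted p = 0.00174). Every sheared library of these 3 genes lay below every static one. CMPK2, a nucleotide kinase whose gene lies next to RSAD2, had 6.47, 5.31 and 7.06 CPM in sheared libraries, against 14.6, 13.5 and 15.2 CPM in static libraries, at -1.21 ± 0.20 (SE, adjusted p = 0.00137). IFIT1 had 30.2, 24.6 and 24.9 CPM in sheared libraries, against 41.4, 42.3 and 37.2 CPM in static libraries, at -0.60 ± 0.12 (SE, adjusted p = 0.00533). IFIT3 had 12.5, 10.7 and 12.8 CPM in sheared libraries, against 19.3, 24.0 and 17.7 CPM in static libraries, at -0.75 ± 0.16 (SE, adjusted p = 0.00643). The groups of these 3 did not overlap either.

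Of the 13 effectors that fell at 12 h, the log2 fold changes ran from -1.48 for BST2 (tetherin, which holds budding virus at the cell surface) to -0.48 for IFIT2. The 6 effectors that did not pass were IFIT5, ISG20, IFI6, IFI27, IFITM2 and IFITM3, with log2 fold changes from -0.42 for IFI6 to 0.46 for ISG20. The membrane proteins IFITM1, IFITM2 and IFITM3, which hinder virus entry, thus gave -0.66 (adjusted p = 0.0113), 0.29 (adjusted p = 0.0861) and 0.18 (adjusted p = 0.324). These are close paralogs, and the annotated IFITM2 model covers the whole IFITM1 gene, so how reads were divided among them is uncertain.

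Among sensors at 12 h, OAS2 had 17.4, 12.9 and 13.3 CPM in sheared libraries, against 37.9, 41.5 and 30.5 CPM in static libraries, the log2 fold change being -1.34 ± 0.15 (SE, adjusted p = 3.18e-05), the smallest p of the 44. IFIH1, which encodes the cytosolic double-stranded RNA sensor MDA5, had 22.7, 13.9 and 11.5 CPM in sheared libraries, against 28.9, 30.7 and 23.9 CPM in static libraries, at -0.85 ± 0.19 (SE, adjusted p = 0.00988). All sheared libraries of both genes were below all static ones. The other oligoadenylate synthetases were not called, at 0.18 for OAS1, -0.34 for OAS3 and -0.54 for the catalytically inactive relative OASL (adjusted p = 0.449, 0.394 and 0.0529). EIF2AK2, the kinase PKR, was at -0.27 (adjusted p = 0.276).

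In the conjugation group at 12 h, PARP9 had 32.5, 24.2 and 28.9 CPM in sheared libraries, against 55.4, 58.1 and 46.1 CPM in static libraries, the log2 fold change being -0.90 ± 0.14 (SE, adjusted p = 0.00097). DTX3L, the ubiquitin ligase that pairs with PARP9, had 31.3, 24.8 and 35.4 CPM in sheared libraries, against 54.6, 60.6 and 50.2 CPM in static libraries, at -0.86 ± 0.15 (SE, adjusted p = 0.00169). Both groups were apart, as they were for PARP14 (-0.72) and the ligase gene HERC6 (-0.81), which also fell. ISG15 itself had 138, 164 and 157 CPM in sheared libraries, against 172, 168 and 201 CPM in static libraries, each sheared library below each static one but not past the threshold (-0.23 ± 0.12, adjusted p = 0.219). Its conjugating enzyme UBE2L6 was at -0.23 and its deconjugating enzyme USP18 at -0.40 (adjusted p = 0.351 and 0.102). PARP9 and DTX3L, and likewise RSAD2 and CMPK2, overlap on opposite strands, and whether counting used the strand is not given in the sources used here, so reads of the shared bases cannot be told apart.

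Of the signalling genes at 12 h, STAT2 had 41.6, 40.8 and 38.0 CPM in sheared libraries, against 63.6, 68.0 and 70.6 CPM in static libraries, the log2 fold change being -0.75 ± 0.12 (SE, adjusted p = 0.00106). IRF9, the DNA-binding part of ISGF3, had 24.8, 21.5 and 23.5 CPM in sheared libraries, against 33.2, 34.1 and 37.3 CPM in static libraries, at -0.58 ± 0.12 (SE, adjusted p = 0.00547). Both fell, with groups that did not overlap. IRF7, which drives interferon genes, had 51.7, 55.6 and 60.4 CPM in sheared libraries, against 70.6, 71.0 and 70.1 CPM in static libraries, at -0.34 ± 0.11 (SE, adjusted p = 0.0602). IRF1 had 8.55, 8.25 and 9.22 CPM in sheared libraries, against 12.4, 10.3 and 10.4 CPM in static libraries, at -0.34 ± 0.21 (SE, adjusted p = 0.317). These 2 did not pass, although every sheared library was again the lower. Among the others SP110, a nuclear body protein, fell (-0.89), and XAF1 passed the test on very few reads, with 1, 2 and 0 counts in sheared and 12, 11 and 3 counts in static libraries.

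Libraries of the 2 groups did not overlap for 31 lower genes and 1 higher gene (OAS1) at 12 h, where 14.4% and 14.6% of all genes did so in each direction. Within the pools, the median log2 ratio of the 44 was -0.47, -0.76 and -0.58 for replicates 1, 2 and 3. The same direction in all 3 was seen for 38 of the 44, and for 7320 of all 15189 genes. The number that fell depended on the pools and their block: it was 8 without 12 h replicate 2 (MX1, MX2, RSAD2, CMPK2, OAS2, PARP9, DTX3L and STAT2), 18 without replicate 1, 17 without replicate 3, and 8 without the pool block. Without replicate 2 the other 15 had adjusted p from 0.0537 to 0.335, all with log2 fold changes below 0. The number of all genes called lower moved too. It was 691 in the main fit and 137 without the block. Without 12 h replicate 1, 2 or 3 it was 245, 165 or 453. With library totals alone as the scaling, the median of all genes moved to -0.16, 22.8% of all calls were higher in place of 58%, and 30 of the 44 were lower with a median of -0.72.

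**Figure D2:**
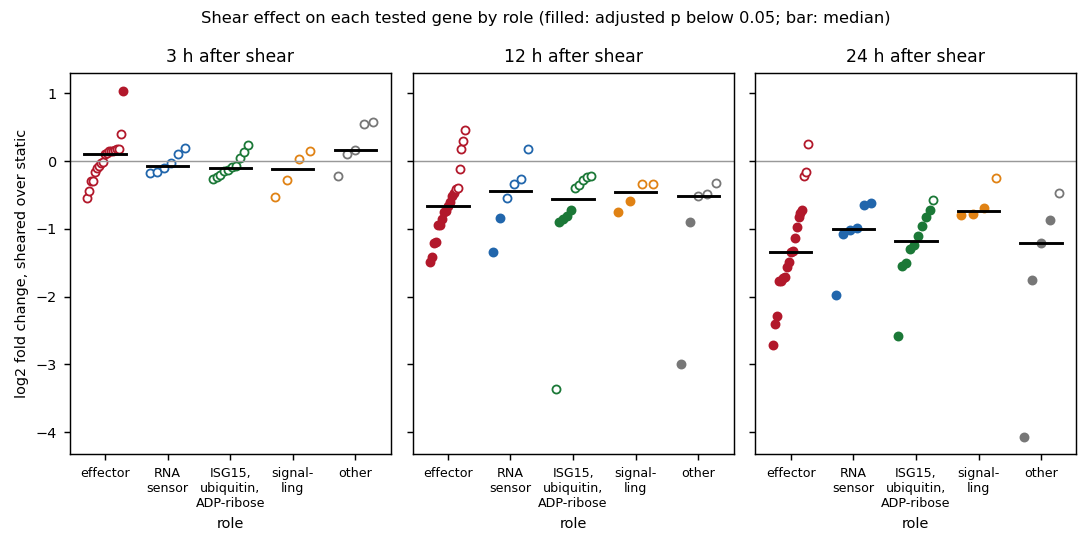
Log2 fold change of sheared over static cells (y axis) for each tested gene, by role (x axis), at 3 h, 12 h and 24 h. Filled points have an adjusted p below 0.05 and bars are medians over the tested genes of a role. The effector median is 0.10 at 3 h, -0.66 at 12 h and -1.34 at 24 h, and the signalling median is -0.12, -0.46 and -0.73.

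At 24 h the difference covered nearly the whole list. Of the 44, 38 fell and 0 rose past the threshold, where 8.07% of all genes were lower and 9.13% higher. DESeq2 called 36 lower and 0 higher, and 1 was higher at an unadjusted p below 0.05. The median log2 fold change was -1.09, against -0.02 over all genes tested. All 6 tested sensors fell, as did 16 of 19 effectors, 9 of 10 of the conjugation group, 3 of 4 signalling genes and 4 of 5 others. The 6 that did not pass were ISG20, IFITM2, IFITM3, HERC5, IRF1 and EPSTI1. The genes that fell at 12 h all fell at 24 h as well, which is 23 of 23 of the 12 h calls and 23 of 38 of the 24 h calls.

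Among effectors at 24 h, IFIT1 had 13.5, 27.8 and 20.7 CPM in sheared libraries, against 37.2, 101 and 81.5 CPM in static libraries, the log2 fold change being -1.77 ± 0.13 (SE, adjusted p = 4.94e-07). MX1 had 40.6, 73.0 and 117 CPM in sheared libraries, against 129, 333 and 287 CPM in static libraries, at -1.72 ± 0.14 (SE, adjusted p = 8.68e-07). MX2 had 0.68, 2.09 and 2.99 CPM in sheared libraries, against 6.29, 13 and 17.4 CPM in static libraries, at -2.72 ± 0.23 (SE, adjusted p = 1.33e-06). Each gene was lower in every sheared library than in any static one, and within both groups replicate 1 was the lowest. CMPK2 had 5.78, 7.03 and 4.30 CPM in sheared libraries, against 18.6, 36.2 and 39.0 CPM in static libraries, at -2.40 ± 0.21 (SE, adjusted p = 1.61e-06). IFIT3 had 9.58, 16.2 and 11.4 CPM in sheared libraries, against 22.6, 46.8 and 36.9 CPM in static libraries, at -1.49 ± 0.16 (SE, adjusted p = 8.19e-06). IFITM1 had 24.8, 47.0 and 107 CPM in sheared libraries, against 72.1, 197 and 231 CPM in static libraries, at -1.57 ± 0.15 (SE, adjusted p = 2.67e-06). CMPK2 and IFIT3 did not overlap between groups. For IFITM1 the sheared library of replicate 3 was above the static one of replicate 1, while each sheared library was below that of its own pool.

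IFI6, a mitochondrial protein that counters cell death, had widely spread libraries at 24 h, with 27.0, 77.3 and 341 CPM in sheared libraries, against 97.2, 285 and 409 CPM in static libraries. It was lower in each pool, at -1.32 ± 0.28 (SE, adjusted p = 0.0109), and without the pool block the adjusted p was 0.519. IFI27 and BST2 also overlapped between groups while lower in each pool, with log2 fold changes of -0.83 ± 0.13 and -2.28 ± 0.34, and adjusted p of 0.471 and 0.0712 without the block. IFITM2 stood against the rest, with 110, 205 and 228 CPM in sheared libraries, against 96.6, 177 and 178 CPM in static libraries, above its own pool each time but not past the threshold (0.25 ± 0.11, adjusted p = 0.111).

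OAS2 had 21.6, 24.7 and 32.2 CPM in sheared libraries, against 69.3, 123 and 121 CPM in static libraries at 24 h, the log2 fold change being -1.97 ± 0.15 (SE, adjusted p = 4.94e-07). IFIH1 had 15.3, 12.3 and 25.9 CPM in sheared libraries, against 33.2, 37.8 and 37.3 CPM in static libraries, at -1.08 ± 0.19 (SE, adjusted p = 0.00114). Neither gene's groups overlapped. The remaining sensors had log2 fold changes of -1.02 ± 0.18 for OASL, -0.99 ± 0.24 for OAS3, -0.65 ± 0.14 for OAS1 and -0.62 ± 0.15 for EIF2AK2. Without 24 h replicate 1 the adjusted p was 0.0929 for OAS3 and 0.059 for EIF2AK2, and without replicate 2 it was 0.0861 for EIF2AK2.

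ISG15, the most abundant of the list per kilobase, had 153, 277 and 338 CPM in sheared libraries, against 365, 848 and 684 CPM in static libraries at 24 h, the log2 fold change being -1.30 ± 0.12 (SE, adjusted p = 2.47e-06). PARP9 had 33.5, 43.0 and 25.7 CPM in sheared libraries, against 76.8, 122 and 101 CPM in static libraries, at -1.55 ± 0.15 (SE, adjusted p = 2.67e-06). Both were lower in every sheared library than in any static one. The enzymes that attach and remove ISG15 fell as well, with log2 fold changes of -0.72 ± 0.15 for UBE2L6 and -0.83 ± 0.15 for USP18, as did DTX3L (-1.24 ± 0.15), PARP14 (-0.96 ± 0.14), HERC6 (-1.50 ± 0.17) and TRIM21, a cytosolic antibody receptor with ligase activity (-1.11 ± 0.21). HERC5, the ligase for ISG15 in human cells, had 1.09, 1.31 and 3.15 CPM in sheared libraries, against 1.68, 2.75 and 3.48 CPM in static libraries and did not pass (-0.57 ± 0.26, adjusted p = 0.14). TRIM22 passed on few reads, with 1, 3 and 2 counts in sheared and 6, 15 and 26 counts in static libraries, and was not called without any one of the 24 h replicates (adjusted p from 0.0905 to 0.214), nor without 3 h replicate 1 or 12 h replicate 1 or 2 (0.0593 to 0.0615).

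STAT2 had 61.3, 44.8 and 47.3 CPM in sheared libraries, against 82.3, 84.7 and 78.8 CPM in static libraries at 24 h, the log2 fold change being -0.69 ± 0.12 (SE, adjusted p = 0.000802). IRF9 had 40.4, 56.9 and 45.9 CPM in sheared libraries, against 62.7, 97.1 and 91.0 CPM in static libraries, at -0.80 ± 0.12 (SE, adjusted p = 0.000184). IRF7 had 75, 133 and 104 CPM in sheared libraries, against 115, 217 and 209 CPM in static libraries, at -0.78 ± 0.11 (SE, adjusted p = 0.000138). All 3 were lower in each pool, and only IRF7 overlapped between groups. IRF1 had 11.8, 9.54 and 34.0 CPM in sheared libraries, against 15.7, 18.6 and 23.3 CPM in static libraries, with replicate 3 as the highest of the sheared libraries and the only one above its pool (-0.25 ± 0.20, adjusted p = 0.429). Among the others, the log2 fold change was -1.76 ± 0.20 for SP110, -1.20 ± 0.15 for IFI35, which binds the cytokine regulator NMI, and -0.86 ± 0.12 for the membrane protein gene PLSCR1. XAF1, an inhibitor of the caspase blocker XIAP, had 0, 0 and 1 counts in sheared and 2, 12 and 12 counts in static libraries, and without 24 h replicate 2 it was not called (adjusted p = 0.109).

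Groups did not overlap for 28 lower and 0 higher genes at 24 h, where 7.64% and 7.49% of all genes did so. Within the pools the median log2 ratio of the 44 was -0.95, -1.42 and -1.05 for replicates 1, 2 and 3. The same direction in all 3 was seen for 41 of the 44, and for 6660 of all 15189 genes. Leaving out any 1 of the 24 h pools left 35 to 38 genes lower, and without the block there were 30. All genes called lower numbered 1225 in the main fit, 609 to 1396 without a 24 h pool, and 320 without the block. The sheared library of replicate 3 stood apart from the other libraries (TMM factor 0.721, 17007 genes detected), and without that pool 38 fell. With library totals alone as the scaling, the median of all genes moved to -0.19, 24.5% of all calls were higher in place of 53.1%, and 40 of the 44 were lower with a median of -1.26.

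**Figure D3:**
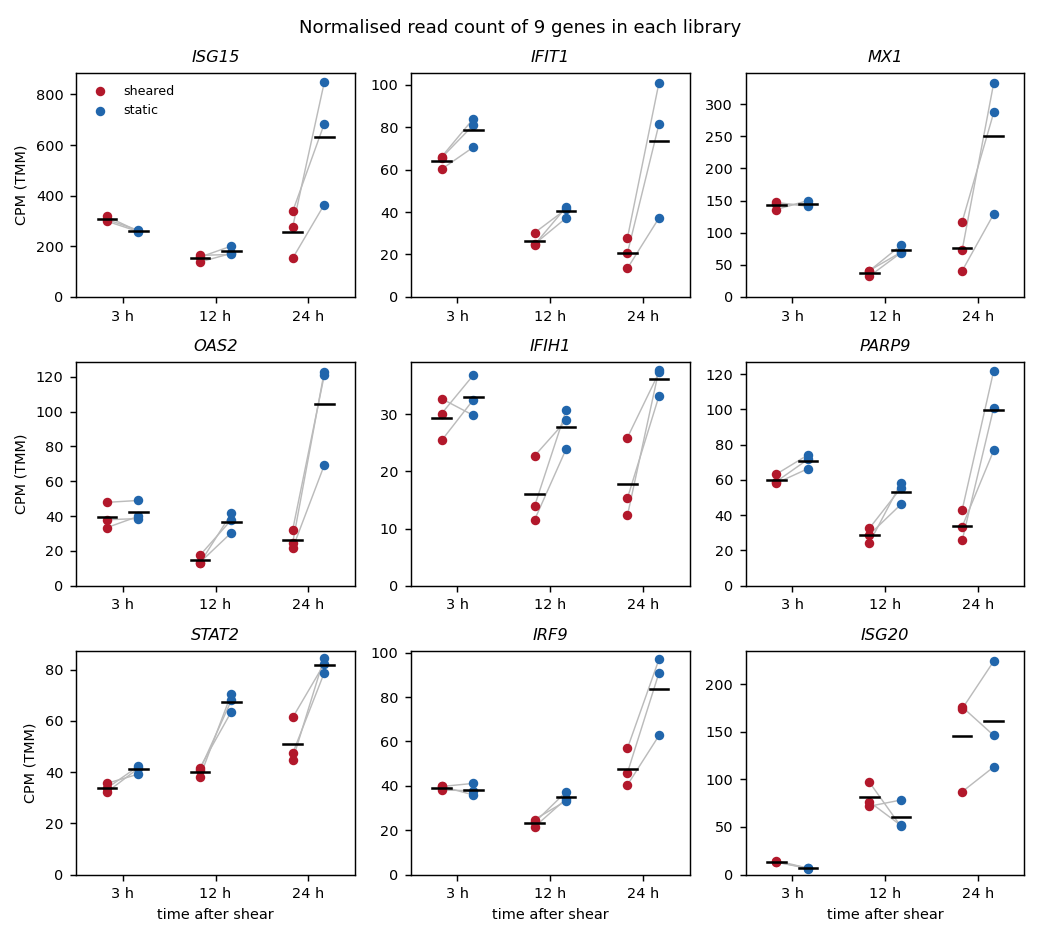
CPM with TMM factors (y axis) of 9 genes in each library at 3 h, 12 h and 24 h (x axis), sheared in red to the left and static in blue to the right. Grey lines join the libraries of 1 pool and black bars are means of 3. MX1 averages 76.8 CPM in sheared and 249.9 CPM in static libraries at 24 h, against 142.5 and 145.3 CPM at 3 h.

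Whether the shear effect itself differed between times was tested as a contrast of the same model. Between 12 h and 3 h it was lower for 5 of the 44 past the threshold, where 0.895% of all genes were, and higher for 0, where 0.514% of all genes were (0 also with DESeq2 and at an unadjusted p below 0.05). These were OAS2 (-1.23 ± 0.20, adjusted p = 0.00299), MX2 (-1.57 ± 0.29, adjusted p = 0.0106), RSAD2 (-1.34 ± 0.28, adjusted p = 0.0227), MX1 (-0.92 ± 0.19, adjusted p = 0.0231) and CMPK2 (-1.20 ± 0.27, adjusted p = 0.0339). The median difference was -0.55, against 0.00 over all genes tested, and 25 of the 44 were lower at an unadjusted p below 0.05. The count was 0 without the pool block. It was 1 without 3 h replicate 2 or 3 or 12 h replicate 2, 2 without 3 h replicate 1, 3 without 12 h replicate 1 or 3, and 12 without 24 h replicate 3. DESeq2 called 9 lower, and 11 were lower with no filter on low counts. The number of all genes called lower moved as well. It was 136 in the main fit, 24 without the pool block, and 44 to 90 without a pool of 3 h or 12 h. It was 378 without 24 h replicate 3, and of 21950 genes it was 237 with DESeq2 and 346 with no filter. The 3 h libraries carry another batch date in the labels than the 12 h and 24 h ones, so for these 5 genes time and batch cannot be told apart.

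Between 24 h and 12 h the shear effect was lower for 2 of the 44, where 0.0790% of all genes were, and higher for 0, where 0.586% of all genes were (0 also with DESeq2 and at an unadjusted p below 0.05). They were IFIT1 (-1.17 ± 0.18, adjusted p = 0.00469) and ISG15 (-1.06 ± 0.17, adjusted p = 0.00644). The median difference was -0.58, against -0.01 over all genes, with 23 lower at an unadjusted p below 0.05. Of the 44, 40 had a lower log2 fold change at 24 h than at 12 h, where 7826 of all 15189 genes had. STAT2 (-0.69 against -0.75) was among the 4 of the 44 that had not. Neither gene was called without the pool block, ISG15 was not called without 12 h replicate 2, and the count was 4 without 24 h replicate 1 and 7 without 24 h replicate 3. DESeq2 called 8 lower, and 11 were lower with no filter on low counts. The number of all genes called lower was 12 in the main fit and 1 without the block. It was 28 without 24 h replicate 1 and 22 without 24 h replicate 3. Of 21950 genes, it was 37 with DESeq2 and 101 with no filter. Of the genes matched to a promoter, the ISRE core was in 9 of the 20 that fell at 12 h (45%) and in 10 of the 16 others (62.5%), and in 15 of the 31 that fell at 24 h (48.4%) and 4 of the 5 others (80.0%).

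Static cells held more transcript of most of these genes at 24 h than at 12 h. Of the 43 tested in the static libraries, 30 rose and 0 fell at 24 h relative to 12 h (edgeR), where 16.9% of all 14804 genes were higher and 15.6% lower. DESeq2 also called 0 lower, as did an unadjusted p below 0.05. The median log2 fold change was 0.89, against 0.01 over all genes. The 30 comprised 14 of 19 effectors, 3 of 6 sensors, 7 of 10 of the conjugation group, 3 of 4 signalling genes and 3 of 4 others. The calls of the sensor gene OAS3 (adjusted p = 0.049) and of PARP14 (adjusted p = 0.0417) were lost under 11 and 10 of 15 alternatives, with adjusted p of up to 0.401 and 0.339. Leaving out 1 library ended that of OAS3 for each one but static 12 h replicate 2 and static 24 h replicate 3, and that of PARP14 for each one but static 24 h replicates 1 and 3. SP110 was not called without static 12 h replicate 1 or 3 or static 24 h replicate 2 (0.0501 to 0.0809), nor USP18 without static 12 h replicate 3 or static 24 h replicate 2 (0.0502 and 0.0838). The static 24 h libraries also serve as the comparison for sheared cells at 24 h, so the 2 sets of values share them.

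OAS1, an oligoadenylate synthetase, had 132, 214 and 251 CPM in static cells at 24 h, against 45.8, 45.1 and 41.4 CPM in static cells at 12 h, the log2 fold change being 2.16 ± 0.19 (SE, adjusted p = 1.34e-06). IFI35 had 23.4, 48.9 and 41.1 CPM at 24 h, against 9, 10.4 and 12.0 CPM at 12 h, at 1.84 ± 0.22 (SE, adjusted p = 1.7e-05). IFI44L had 40.7, 84.2 and 75 CPM at 24 h, against 21.4, 22.8 and 14.6 CPM at 12 h, at 1.75 ± 0.23 (SE, adjusted p = 5.25e-05). In all 3 every 24 h library was above every 12 h one. RSAD2 likewise had 21.6, 25.6 and 29 CPM at 24 h, against 10.2, 10.8 and 11.5 CPM at 12 h, at 1.22 ± 0.17 (SE, adjusted p = 8.33e-05).

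For genes whose static values are given with the shear comparisons, the log2 fold change of 24 h over 12 h was 1.80 ± 0.22 (SE, adjusted p = 5.8e-05) for ISG15, 1.77 ± 0.26 (SE, adjusted p = 0.00039) for MX1 and 1.50 ± 0.19 (SE, adjusted p = 3.49e-05) for OAS2. It was 1.34 ± 0.18 (SE, adjusted p = 4.54e-05) for IRF7, 1.25 ± 0.15 (SE, adjusted p = 1.95e-05) for IRF9 and 0.79 ± 0.17 (SE, adjusted p = 0.00181) for IRF1. These 6 had static groups that did not overlap. IFIT1 (0.85 ± 0.26, adjusted p = 0.0275) and IFIT3 (0.79 ± 0.22, adjusted p = 0.0133) rose with overlapping groups. The adjusted p of IFIT1 was 0.0801 to 0.104 without static 12 h replicate 1, 2 or 3 or static 24 h replicate 2 or 3. That of IFIT3 was 0.0564 to 0.0784 without static 12 h replicate 1 or 3 or static 24 h replicate 2. IFIH1 (0.36, adjusted p = 0.0556) and STAT2 (0.27, adjusted p = 0.0826) did not pass. The 3 largest log2 fold changes were those of BST2 (3.12 ± 0.45), IFI6 (3.01 ± 0.58) and IFITM1 (2.77 ± 0.37). Groups did not overlap for 29 higher genes, where 22.1% of all genes were so. With library totals alone, 25 rose with a median of 0.70 while the median of all genes moved to -0.18, and 26.3% of all calls were higher in place of 52%.

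Summed over the 45, the level was 1570, 2100 and 3080 CPM in sheared cells at 24 h, against 2590, 4760 and 4870 CPM in static cells. The sheared sum of replicate 3 exceeded the static sum of replicate 1, so the groups overlap, while within the pools the sheared sum was 0.606, 0.441 and 0.632 of the static one. At 12 h the sums were 1380, 1360 and 1340 CPM in sheared cells, against 1640, 1660 and 1700 CPM in static cells, which are apart. At 3 h they were 2260, 2260 and 2470 CPM in sheared cells, against 2260, 2240 and 2390 CPM in static cells.

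**Figure D4:**
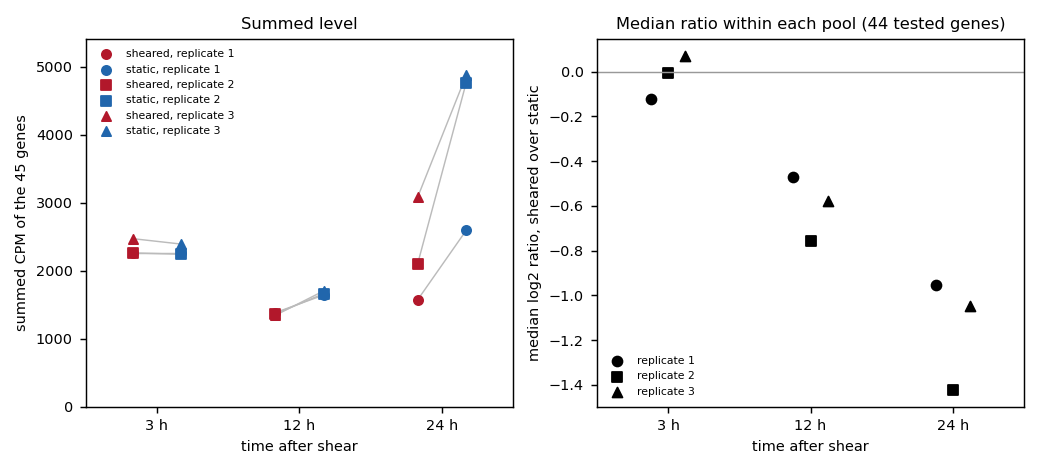
Left, summed CPM of the 45 genes (y axis) by time (x axis) in sheared (red) and static (blue) libraries, with lines joining the libraries of 1 pool. Right, median log2 ratio of sheared over static within each pool over the 44 tested genes, which lies between -0.12 and 0.07 at 3 h, -0.76 and -0.47 at 12 h, and -1.42 and -0.95 at 24 h.

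In static cells at 12 h relative to 3 h, most log2 fold changes were below 0. They were so for 36 of the 43, and for 7329 of all 14804 genes. Of the 43, 17 fell, where 22.9% of all genes were lower, and 3 rose, where 21.7% were higher, with a median of -0.50, against 0.01 over all genes. Here, too, batch and time cannot be told apart. With upper quartile factors the median of all genes moved to 0.11, 58.8% of all calls were higher in place of 48.6%, and 14 of the 43 fell and 4 rose.

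IRF1 had 12.4, 10.3 and 10.4 CPM in static cells at 12 h, against 43.0, 43.3 and 35.8 CPM in static cells at 3 h, the log2 fold change being -1.89 ± 0.17 (SE, adjusted p = 1.69e-07). OAS3 had 50.3, 58.6 and 48.3 CPM at 12 h, against 113, 112 and 129 CPM at 3 h, at -1.17 ± 0.13 (SE, adjusted p = 2.24e-06). IFIT2 had 25.6, 28.2 and 25.7 CPM at 12 h, against 52.7, 54.1 and 59.2 CPM at 3 h, at -1.07 ± 0.14 (SE, adjusted p = 8.9e-06). None of these 3 overlapped between times. PLSCR1 had 37.7, 39.1 and 38.8 CPM at 12 h, against 72.7, 71.7 and 77.0 CPM at 3 h (-0.94 ± 0.13). EIF2AK2 had 61.6, 60.9 and 49.7 CPM at 12 h, against 108, 102 and 93.9 CPM at 3 h (-0.82 ± 0.13). HERC5 had 3.83, 2.66 and 2.70 CPM at 12 h, against 6.53, 7.69 and 6.03 CPM at 3 h (-1.15 ± 0.26). These too were lower in every 12 h library. HERC6 had 14.2, 16.4 and 11.9 CPM at 12 h, against 27.6, 24.0 and 20.8 CPM at 3 h (-0.77 ± 0.20), and IFI44L (-0.91 ± 0.22), MX1 (-1.0 ± 0.26) and IFIT1 (-0.96 ± 0.26) fell as well.

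The 3 that rose were ISG20, STAT2 and TRIM21. ISG20 had 51.6, 50.6 and 78.2 CPM in static cells at 12 h, against 6.66, 6.32 and 6.80 CPM in static cells at 3 h, the log2 fold change being 3.18 ± 0.25 (SE, adjusted p = 1.83e-07). STAT2 was at 0.71 ± 0.12 (SE, adjusted p = 0.000108). TRIM21 had 12.8, 15.1 and 13.3 CPM at 12 h, against 8.18, 6.32 and 7.78 CPM at 3 h, at 0.88 ± 0.19 (SE, adjusted p = 0.00114). The 12 h libraries of all 3 were above the 3 h ones. OAS2, IFIH1, IFIT3, IRF7, IRF9 and ISG15 did not pass, with log2 fold changes of -0.22, -0.25, -0.56, -0.18, -0.14 and -0.53.

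The genes that feed this response were then examined. Of 22 interferon genes, 1 passed the filter (IFNE), no interferon gene had more than 25 counts in any library, and IFNB1 had at most 3 counts, 18 over all 18 libraries. IFNE had 3, 2 and 0 counts in sheared libraries, against 1, 12 and 25 counts in static libraries at 24 h, and did not pass (-2.33 ± 0.93, adjusted p = 0.0925), although its unadjusted p was 0.022. Of the 15 tested receptor, kinase, STAT and feedback genes, 2 rose and 1 fell in sheared cells at 12 h, where 6.29% of all genes were higher and 4.55% lower. At 24 h 2 rose and 2 fell, where 9.13% and 8.07% of all genes did, with medians of -0.02 and 0.08. SOCS3, a feedback inhibitor of cytokine receptors, had 90.1, 98.1 and 65.5 CPM in sheared libraries, against 32.8, 25.5 and 35.9 CPM in static libraries at 12 h and rose, at 1.42 ± 0.17 (SE, adjusted p = 7.63e-05). At 24 h SOCS3 was at 1.15 ± 0.17 (SE, adjusted p = 0.000173).

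The type I interferon receptor genes IFNAR1 and IFNAR2 and the kinase genes JAK1 and TYK2 did not pass in sheared cells. At 24 h the log2 fold change was -0.21 ± 0.11 for IFNAR1, -0.06 ± 0.13 for IFNAR2, 0.11 ± 0.14 for JAK1 and 0.07 ± 0.11 for TYK2, and at 12 h it was -0.19 ± 0.10, -0.06 ± 0.13, -0.18 ± 0.14 and -0.10 ± 0.11 (adjusted p from 0.179 to 0.813 over these 8). The kinase gene JAK2 rose at 12 h (0.53 ± 0.12), the phosphatase gene PTPN2 rose at 24 h (0.37 ± 0.12), and the interferon gamma receptor gene IFNGR1 fell at both (-0.55 ± 0.15 and -0.61 ± 0.15). Of 19 tested sensors, adaptors and kinases outside the 45, 5 fell and 1 rose at 12 h, and 7 fell and 1 rose at 24 h, where 4.55% of all genes were lower and 6.29% higher at 12 h, and 8.07% and 9.13% at 24 h. RIGI, the sensor RIG-I, fell at both times (-0.70 ± 0.14 and -0.87 ± 0.14), as did the DNA sensor gene IFI16 (-1.06 ± 0.22 and -1.10 ± 0.22). IRF3, the transcription factor these sensors activate, did not pass (0.17 ± 0.12 and 0.03 ± 0.12).

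A further list of 49 interferon-stimulated genes outside the 45, of which 43 were tested, had 12 lower and 0 higher in sheared cells at 12 h, and 21 lower and 0 higher at 24 h (1 higher at an unadjusted p below 0.05 at each time), with medians of -0.32 and -0.54. Of all genes 4.55% were lower and 6.29% higher at 12 h, and 8.07% and 9.13% at 24 h. At 24 h these included PARP10 (-1.30 ± 0.13), TRIM14, which acts with the adaptor MAVS (-1.08 ± 0.13), the helicase gene DDX60 (-1.23 ± 0.18) and TRANK1 (-1.46 ± 0.23). GBP2, a guanylate-binding protein, fell at 12 h (-1.02 ± 0.18) and 24 h (-0.60 ± 0.17). In static cells at 24 h relative to 12 h, 12 of the 43 rose and 0 fell (0 lower also at an unadjusted p below 0.05), where 16.9% of all genes were higher and 15.6% lower. In the authors' deposited table for 24 h, 34 of the 41 with an adjusted p had one below 0.05 and a negative log2 fold change, and 0 a positive one. In the authors' deposited table for 12 h the numbers were 15 and 0 of 41, and in that for 3 h 0 and 1 of 43. The share of all genes called in the deposited tables was not computed, so these counts stand without a background.

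The libraries held 16400487 to 25862360 counts, of which the 45 genes took 0.131% to 0.468%. Of the markers of this line, EPCAM, KRT8, KRT18, KRT19 and CDH1 were detected in every library, while KLK2 was at 0 in 18 of 18. Of 6 epithelial markers tested, 1 rose and 1 fell in sheared cells at 12 h (edgeR), where 6.29% of all genes were higher and 4.55% lower. These were KRT8 (0.59, adjusted p = 0.0069) and CDH1 (-0.51, adjusted p = 0.00709). At 24 h 0 rose and CDH1 fell (-0.49, adjusted p = 0.00577), where 9.13% and 8.07% of all genes did. For blood cells, which could bring an interferon response of their own, MS4A1 and CLEC4C were at 0 in all 18 libraries and PTPRC had at most 14 counts. The sum of the 13 blood cell markers was 76.8 to 136 CPM in sheared cells at 24 h, against 66.9 to 119 CPM in static cells, nearly all from CD68, and 0 of 5 tested passed (1 higher at an unadjusted p below 0.05). The sum of the 11 fibroblast and endothelial markers, nearly all from PECAM1, was 43.2 to 60.6 CPM in sheared cells at 12 h, against 71.6 to 91.3 CPM in static cells, with 2 of 5 tested lower. At 24 h it was 63.4 to 89 CPM in sheared cells, against 80.5 to 117 CPM in static cells, with 0 of 5 lower (1 at an unadjusted p below 0.05). Nuclear RNAs, a measure of leakage into the cytosolic fraction, summed to 123 to 544 CPM in sheared cells at 24 h, against 187 to 299 CPM in static cells. Of 4 tested, 1 (TUG1) was lower at 12 h and at 24 h, and 0 passed as higher. At 12 h 1 of the 4 lay above 0 and at 24 h 3 did, with medians of -0.21 and 0.49. At 24 h KCNQ1OT1 was at 1.27 (adjusted p = 0.0683, edgeR), the 1 higher at an unadjusted p below 0.05. Markers moved between static groups too, where 16.9% of all genes were higher and 15.6% lower at 24 h than at 12 h. In static cells at 24 h, against 12 h, the nuclear RNAs MALAT1 and KCNQ1OT1 fell (-1.21 and -1.59), 2 of 4 tested, with sums of 187 to 299 CPM at 24 h, against 271 to 290 CPM at 12 h. There 5 of the 6 epithelial markers rose, with sums of 6180 to 9160 CPM at 24 h, against 4470 to 4840 CPM at 12 h. CD68 rose as well (1.27), 1 of 4 blood cell markers tested, whose sums were 66.9 to 119 CPM at 24 h, against 34.5 to 38.4 CPM at 12 h. The part of these markers in the results was not tested.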

How the data were processed

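Cytosolic RNA of PC-3 cells was sequenced as 18 libraries, 3 in each of 6 groups. Alignment by the authors was with STAR, to GRCh38.p13, and DESeq2 was used, per the submitters' processing notes. The sources used here give neither versions nor the read counter and its strand setting. The table of counts the authors deposited holds raw reads per NCBI Gene ID, and the authors' deposited tables hold, per the file headers, each gene's log2 fold change, p-value and adjusted p-value. RefSeq symbols (GRCh38.p14) were found for 27745 of 28395 Gene IDs. Lengths and overlaps came from GENCODE 29, and promoters from RefSeq. At 3 h, count columns were assigned to libraries from the time and letter that both names carry.

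The counts were fitted with edgeR 4.0.16 in R 4.3.3, using TMM factors, genes kept by filterByExpr (a count of at least 10, a total of at least 15), the legacy quasi-likelihood F test (robust), and Benjamini-Hochberg adjustment over all genes tested, with a threshold of 0.05. The shear model held all 18 libraries, 9 pools as blocks and a shear effect at each time, with 6 residual degrees of freedom. Differences between times were contrasts of it. Static cells were compared in the 9 static libraries. Counts at an unadjusted p below 0.05 were made for the listed genes and not over all genes. The pools are stated in the series' design text. As a check, deviations from the group mean were correlated across genes between the sheared and static libraries of each pool, which gave r of 0.0852 to 0.289 for the 3 h pools, -0.146 to 0.246 for those of 12 h, and 0.382 to 0.512 for those of 24 h. Replicates differed by more than counting error (chi-square per degree of freedom 4.3 to 134). An exact permutation of 3 against 3 cannot give a p below 0.1, so none was made per gene. Each standard error was derived as the absolute log2 fold change divided by the root of F. Total counts per library were 16400487 to 25862360, which limits the genes of few reads. Other scalings, no filter, DESeq2 1.42.0, no block, other sets of libraries and leaving out each pool were tried.

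The members and lists were chosen with earlier results of these data known. Each library's values are given for up to 8 members of smallest p among those called in a comparison and direction, and for ISG15, IFIT1, IFIT3, MX1, OAS2, IFIH1, STAT2, IRF9, IRF7 and IRF1 in each comparison.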

Additional observations from a re-analysis of the deposited data

Results flagged for a closer look

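The shear effect of 7 genes differed between times in a test of the difference itself (contrasts of the edgeR model, adjusted over all genes tested). At 12 h minus 3 h, the log2 effect of sheared over static cells differed by -1.23 for OAS2, -1.57 for MX2, -1.34 for RSAD2, -0.92 for MX1 and -1.20 for CMPK2. At 24 h minus 12 h, it differed by -1.17 for IFIT1 and -1.06 for ISG15. The 3 h libraries carry another batch date than the later ones, so for the first 5 genes time and batch cannot be told apart. All 7 log2 effects were thus lower at the later time. Without the pool block none of the 7 passed, and the adjusted p reached 0.163 for OAS2, 0.396 for MX2, 0.166 for RSAD2, 0.717 for MX1, 0.268 for CMPK2, 0.694 for IFIT1 and 0.807 for ISG15 over the alternatives tried.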

How the results depend on the processing

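Without the replicate block for the pools, the members called were 0 higher at 3 h, 8 lower at 12 h and 30 lower at 24 h, and 0 lower for the effect at 12 h minus 3 h and at 24 h minus 12 h. No paired analysis was possible for static cells because pools of different times are independent. With no filter on low counts, 1 was lower at 3 h, 1 higher at 12 h, and 11 were lower for each of the differences between times. With DESeq2 those differences had 9 and 8 lower, and with library totals alone 24 h minus 12 h had 4. Over all genes, 136 were lower for 12 h minus 3 h and 12 for 24 h minus 12 h in the main fit. These numbers were 346 and 101 with no filter, and 237 and 37 with DESeq2. With library totals alone 24 h minus 12 h had 10 of all genes lower. With the 6 libraries of a time alone, 6 were lower and 2 higher at 3 h (of all 14470 genes, 650 and 816), and 31 were lower at 24 h. Leaving out 1 pool gave 0 to 1 lower and 0 to 1 higher at 3 h, 8 to 30 lower and 0 to 1 higher at 12 h, 35 to 38 lower at 24 h, 1 to 12 lower for 12 h minus 3 h and 2 to 7 for 24 h minus 12 h. The lowest count at 12 h came without 12 h replicate 2, and the highest ones at 12 h and for both differences without 24 h replicate 3. All genes called lower without 24 h replicate 3 numbered 1138 at 12 h, 378 for 12 h minus 3 h and 22 for 24 h minus 12 h. Leaving out 1 static library gave 24 to 34 higher for 24 h over 12 h, and 13 to 23 lower for 12 h over 3 h. Directions under the alternatives were followed only for called genes and for ISG15, IFIT1, IFIT3, MX1, OAS2, IFIH1, STAT2, IRF9, IRF7 and IRF1. Among these, the direction of 3 log2 fold changes that were not called depended on 1 pool. Leaving out 1 pool gave -0.075 to 0.026 for MX1 and -0.020 to 0.077 for IRF9 at 3 h, and -0.67 to 0.093 for IRF1 at 24 h. With library totals alone IRF9 was at -0.013 at 3 h. Of the calls, 7 of 23 at 12 h and 27 of 38 at 24 h held under all alternatives that tested the gene. The cause of these shifts was not tested. Depth limits XAF1, TRIM22, EPSTI1 and DHX58.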
